A study of Mus musculus with 9 samples.

Results

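The cytosolic ribosomal protein genes were followed through bulk RNA sequencing of mouse kidney. They were taken as every row of the expression table whose symbol reads Rpl or Rps followed by a number, with at most a closing letter and number, plus Rplp0, Rplp1, Rplp2 and Rpsa. Pseudogene rows and the Rps6k kinases were left out. The rule uses names only, and it found 84 of the 26139 gene symbols in the table: 32 genes of the small (40S) subunit, 49 of the large (60S) subunit and 3 of its stalk. Of these, 82 reached an FPKM of 1 in 3 or more libraries and entered the tests among 11617 genes, while Rpl32l and Rpl39l did not. FPKM counts sequenced fragments relative to the length of a gene and the total of its library.

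There were 3 groups with 3 kidney libraries each. The WT group was wild-type C57/BL6 mice gavaged with saline. The IgAN group was Itgam-IRES-hCD89 mice, which carry human CD89, an Fc receptor for IgA, behind an internal ribosome entry site at Itgam, and it was gavaged with saline as well. The GQYS group had the same Itgam-IRES-hCD89 genotype and was given GQYS granules by gavage each day for 5 months. The sample titles name this preparation by the abbreviation alone. The sample titles call WT and IgAN untreated, while the protocol text gives saline. The knock-in allele was shared by IgAN and GQYS. Itgam is transcribed mainly in myeloid cells, so the allele models a receptor on those cells and not a change in kidney epithelium. Age, sex and the number of animals behind a library are not stated in the labels. Whether each library came from its own animal is not stated either, and the p-values therefore reflect only how far these libraries scatter, which may be technical in part.

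Each ribosome has a small subunit that decodes mRNA and a large subunit that forms peptide bonds, and nearly every ribosomal protein is present in a single copy per ribosome. The stalk, built from Rplp0, Rplp1 and Rplp2, recruits the translation factors that drive elongation. Mammalian ribosomal protein mRNAs begin with a cytosine followed by a run of pyrimidines, the 5′ terminal oligopyrimidine (TOP) motif, through which mTORC1 and the RNA-binding protein LARP1 set how well they are translated and how long they last. In kidney tubules, with their heavy load of transporters and mitochondria, these mRNAs are among the most abundant. RNA sequencing measures their level and not their translation.

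Sequence around the annotated gene start was searched for pyrimidine letters and a few promoter motifs. RefSeq windows from 250 bases before to 50 bases after the start, in build GRCm38.p6, matched 63 of the 84 genes by symbol, with 75 windows. Within 40 bases of the start and on the sense strand, the letters CTTTC were present in 31 of the 75 windows (41.3%) and in 10.3% of all 32851 windows. The longer CTCTTTC, which contains CTTTC, was in 17.3% against 1.07%. CGGAAG, searched on both strands over the whole window, was in 45 of the 75 windows, against 16.9% of all, AAGATGGC on both strands was in 10.7% against 2.75%, and TATAAA on the sense strand was in 9.33% against 8.32%. Most of the genes' windows thus lacked CTTTC. A pyrimidine run of at least 8 bases that starts with C, within the same 40 bases and strand, was in most of them. It was in 49 of the 75 windows (65.3%), against 23.2% of all windows. Shares were also counted by gene and set against the 9172 other tested genes with a window. CTTTC was in 46.0% against 9.88%, CGGAAG in 66.7% against 34.9% and AAGATGGC in 9.52% against 5.51%. Over all 19231 genes of the expression table with a window, the shares were 11.5%, 23.7% and 3.75%. By gene, the last 2 contrasts were thus smaller against expressed genes. The motifs were chosen after levels had been seen, and a match describes letters, not a binding site. The stretches below belong to genes described later, from the stalk, both subunits and genes with low and high levels. Each is 30 bases long, on the gene's own strand, with the pyrimidine run that holds CTTTC in capitals from its first C. These runs started between -39 and -3 relative to the annotated start. They came from chr7:141447636-141447665 (Rplp2, plus strand), chr9:64173361-64173390 (Rpl4, plus), chr5:107900497-107900526 (Rpl5, plus), chr4:152325679-152325708 (Rpl22, plus), chr17:27635227-27635256 (Rps10, minus) and chr7:118116143-118116172 (Rps15a, minus).
Rplp2: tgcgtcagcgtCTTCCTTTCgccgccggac
Rpl4: gtgacaagtCTTTCCTTTTCCTgtgggagc
Rpl5: gcctacagccaCTCTTTCTCacgtcgcttg
Rpl22: ccgtctgaCTCCTCCCTTTCCCgacagccg
Rps10: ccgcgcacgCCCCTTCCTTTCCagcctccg
Rps15a: gcccggcccaCTCTCTTTCTgccatcttcc
Counted from its first C, the marked run was 14 pyrimidines long in Rpl22, 13 in Rps10 and Rpl4, 10 in Rps15a and 9 in Rpl5 and Rplp2. In Rpl4 and Rplp2 a further T, not marked, stands just before that C.

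Libraries held 30564947 to 38161564 reads assigned to genes, recovered as whole reads from the steps of the FPKM values. The knock-in locus Itgam itself was low, at 0.495 ± 0.197 FPKM in WT kidneys, 0.289 ± 0.132 in IgAN and 0.0848 ± 0.0574 in GQYS (SD, n = 3). The 14 kidney epithelial markers were all detected in every group, with summed levels of 3240 to 4630 FPKM over the 9 libraries. WT replicate 1 stood apart in composition, with 18.6% of its reads from mitochondrially encoded genes against 7.81% to 13.3% in the other libraries. When limma weighted each library by how well it fitted its group, WT replicate 1 and IgAN replicate 1 had the lowest weights of the 9, at 0.171 and 0.453, and the next lowest had 0.666. In bulk tissue, fewer cells of a type and less RNA per cell cannot be told apart.

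The ribosomal protein genes together took 1.80% to 2.38% of all reads and 4.59% to 5.51% of all FPKM. Their share of reads was 2.37%, 1.86% and 1.80% in WT replicates 1 to 3, 2.38%, 1.95% and 2.06% in IgAN, and 2.26%, 2.04% and 2.10% in GQYS. Group means were 2.01% ± 0.313 for WT, 2.13% ± 0.225 for IgAN and 2.13% ± 0.114 for GQYS (SD, n = 3). The 3 groups overlapped, and the first replicate of each group was its highest.

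Among single genes the level ranged widely. Rpl41, which encodes the smallest ribosomal protein, was highest, at 1031, 862 and 855 FPKM in WT kidneys, 1154, 876 and 1026 in IgAN, and 1034, 999 and 1017 in GQYS. It led in each of the 9 libraries but its WT values overlapped those of the IgAN libraries. Rplp1, a stalk protein, followed with a mean of 722 FPKM over 9 libraries, then Rpl10, a late-joining protein of the large subunit near the peptidyl transferase centre, with 711, and Rps29, a zinc-binding protein of the small subunit, with 694. Ranges over libraries overlapped between each of these neighbours (629.8 to 898 FPKM for Rplp1, 589.6 to 820.1 for Rpl10 and 555 to 903 for Rps29), so their order does not stand out from the spread between libraries.

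At the low end, Rps15a, a small-subunit protein, averaged 29.9 FPKM, Rpl7l1, a paralog of Rpl7, 30.9 FPKM, Rpl6l 27.1 FPKM and Rps27l 44.8 FPKM. Rpl3l, the paralog of Rpl3 known from heart and skeletal muscle, was at 0.916 to 1.69 FPKM, on 52 to 106 reads per library. FPKM divides by the gene length used in the authors' counting, and the length recovered from the values was 5136 bases for Rps15a and 2748 for Rps27l, whose coding sequences are 390 and 252 bases. With reads scaled to coding length in place of the counted gene length, and to the library total as before, Rps27l stood at 488.5, near the median of 501 over the 80 genes with a known coding length other than Rpl3l, and Rps15a at 394, just under the first quartile of 401. Those 80 genes spanned 29.9 to 984 on the FPKM scale, with an SD of 1.03 between genes on the log2 scale. On the coding scale they spanned 109 to 5890, with an SD of 0.70. Rpl41 held the top of both scales, but its coding sequence of 75 bases is far shorter than the 449 bases of its counted gene, which inflates its coding-scale value. Rpl7l1 and Rpl22l1, at 109 and 110.5 on the coding scale, were the lowest on it.

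**Figure D1:**
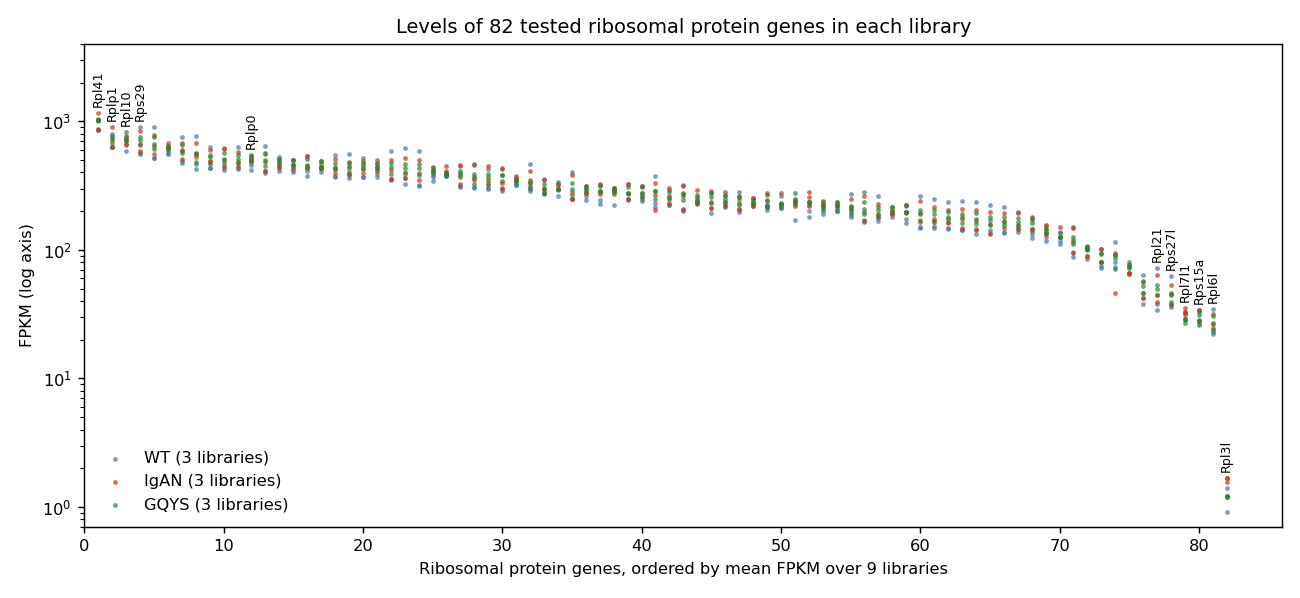
FPKM (log axis) of the 82 tested ribosomal protein genes in each of 9 libraries, ordered by their mean, with 1 point per library coloured by group. Rpl41 at the left averages 984 FPKM, the middle of the set lies between quartiles of 190 and 436 FPKM with all 3 groups intermingled, and Rpl3l at the right is near 1.

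The genes moved together from library to library far more than they differed between groups. For each tested gene the log2(FPKM + 1) in a library was set against that gene's mean over the 9 libraries. The median of these deviations over the 82 genes was 0.24, -0.19 and -0.23 in WT replicates 1 to 3, 0.23, -0.12 and -0.016 in IgAN and 0.13, -0.065 and 0.027 in GQYS. WT thus held the highest library and both of the lowest. WT replicate 1 had the highest value of 43 of the 82 genes and IgAN replicate 1 that of 25, while WT replicate 3 had the lowest of 52 and WT replicate 2 that of 16. In IgAN replicate 1, 81 of 82 genes were above their own mean, and in WT replicate 3 only 2 were.

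**Figure D2:**
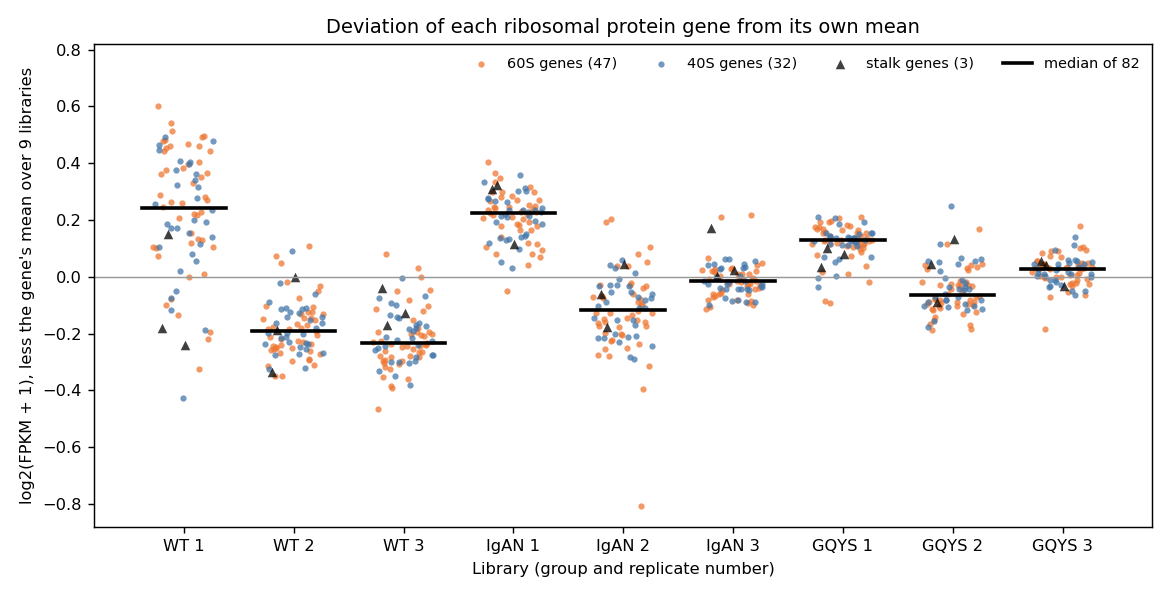
Deviation of log2(FPKM + 1) from each gene's own mean, for 82 ribosomal protein genes in 9 libraries, with 1 point per gene and a bar at the median. The bars run from 0.24 in WT replicate 1 to -0.23 in WT replicate 3, while the 3 GQYS libraries stay between -0.065 and 0.13. The lone point near -0.8 in IgAN replicate 2 is Rpl22l1.

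Over 3321 pairs of genes the median Pearson correlation across the 9 libraries was 0.86, with quartiles of 0.467 and 0.942. It was 0.92 after group means were taken out and 0.88 without WT replicate 1. A first principal component of the 82 genes held 86.2% of their variance, with a positive weight for 75 of them. These are descriptions without a test, since all pairs share the same libraries, depth and scaling. Of the 82 genes, 59 had a correlation above 0.9 with the mean of the others. Rps10, a small-subunit protein at the mRNA entry, Rpl30, Rpl23a and Rps7 were among those that followed the common movement most closely, with SDs of 0.025 to 0.038 in log2 level after the members' mean was subtracted in each library. Their SDs before subtraction were 0.15 to 0.18.

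Other genes departed from this movement. Rpl3, a large-subunit protein beside the peptidyl transferase centre, was at 225, 304 and 288 FPKM in WT kidneys, 290.2, 298 and 270.1 in IgAN and 305, 287 and 280.1 in GQYS. WT replicate 1, the highest library for most ribosomal protein genes, was the lowest for Rpl3. Rps4x, an X-linked small-subunit protein, had the same pattern, with 172 FPKM in WT replicate 1 and 218 to 275 FPKM in the other 8 libraries. Rpl9, at 264 FPKM in WT replicate 1 against 293 to 340.2 elsewhere, and Rplp0, at 419 against 454 to 543, followed it as well. Rpl3, Rpl7l1, Rps4x, Rpl9, Rpl5 and Rplp0 were the 6 genes with a negative correlation with the mean of the others, from -0.50 to -0.03. Without WT replicate 1 the correlation of Rplp0 was 0.64, that of Rpl4 went from 0.11 to 0.855, and that of Rpl3 stayed negative at -0.093. Rpl22l1 departed through another library. It was at 45.9 FPKM in IgAN replicate 2 and at 71.2 to 114 FPKM in the others, the largest SD among the 82 genes after the common movement was taken out (0.29 with that of Rps4x at 0.29).

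In some libraries the deviations were related to coding length. In WT replicate 1 the deviation of the 81 tested genes with a known coding length fell with the logarithm of that length, with r = -0.53 across genes, and it did so in IgAN replicate 1 with -0.53 and in GQYS replicate 3 with -0.53. In WT replicate 2 and IgAN replicate 2 the relation had the other sign, at 0.61 and 0.60, and it lay between -0.14 and 0.31 in the other 4 libraries. Ribosomal protein genes with a coding length under 400 bases (27 tested) had a median deviation of 0.36 in WT replicate 1, and those of 600 bases or more (24 tested) had 0.037. In WT replicate 2 the same medians were -0.24 and -0.11. Other tested genes shared the sign of r in every library but IgAN replicate 3, where they had -0.14 and the ribosomal protein genes 0.080. In WT replicates 1 and 2 the other genes had -0.38 and 0.21. The 562 other tested genes under 400 bases had a median deviation of 0.205 in WT replicate 1 and -0.089 in WT replicate 2, and the 5783 above 1257 bases, the longest coding sequence among the ribosomal protein genes, had -0.19 and 0.066. Genes are not independent replicates, so these values describe the libraries and have no test. Library depth, mitochondrial share and RNA quality can differ between such libraries, and their part in the movement was not tested beyond the values given here.

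**Figure D3:**
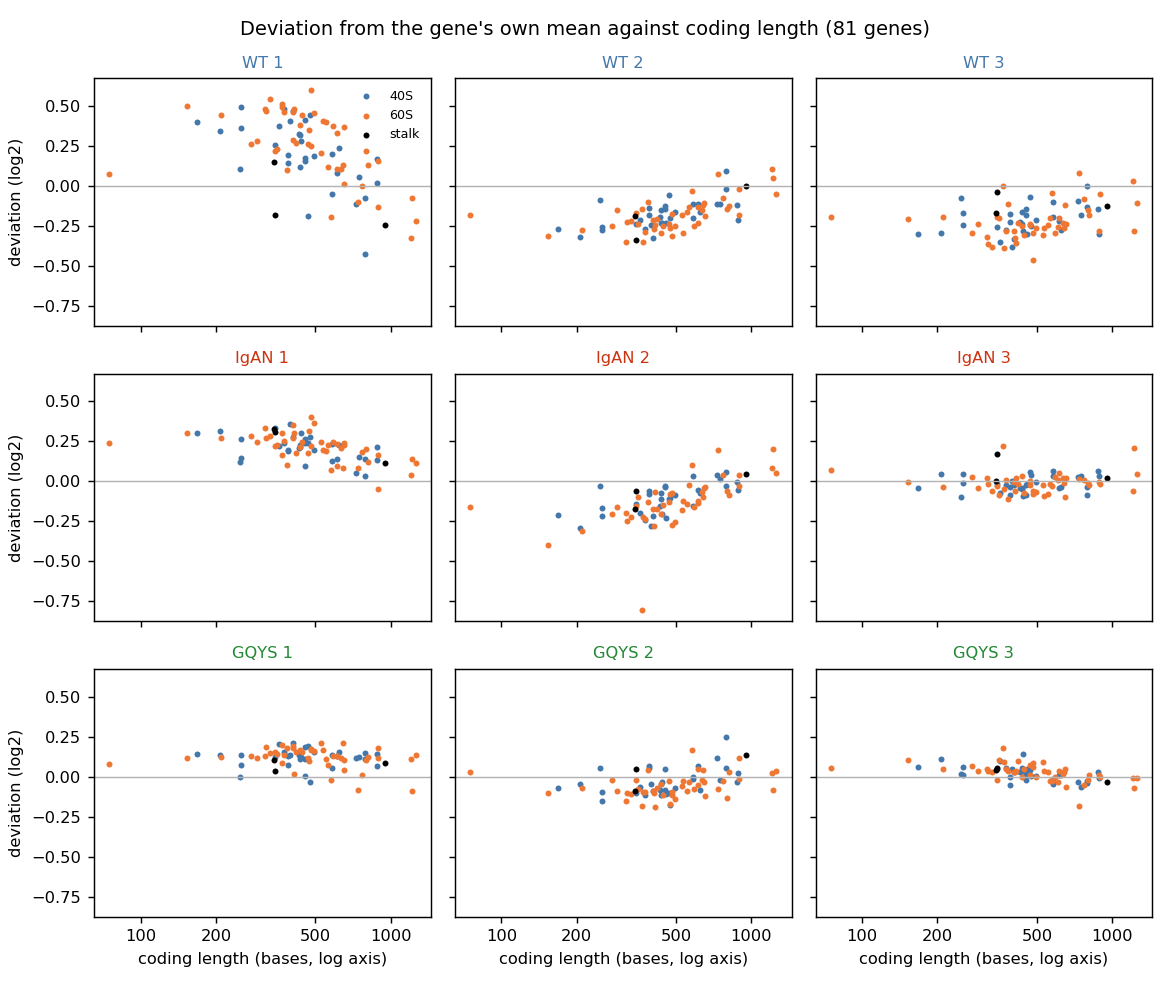
Deviation from each gene's own mean (log2) against coding length (bases, log axis) for the 81 tested ribosomal protein genes with a known coding length, with 1 panel per library. Points slope downward in WT replicate 1 and IgAN replicate 1 (r of -0.53 each) and upward in WT replicate 2 and IgAN replicate 2 (0.61 and 0.60).

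IgAN was set against WT to ask how knock-in kidneys differed from wild-type ones. No ribosomal protein gene passed the threshold. By limma on log2(FPKM + 1) over all 9 libraries, 0 of 82 had a Benjamini-Hochberg adjusted p under 0.05, where 0.353% of all tested genes did. At an unadjusted p under 0.05 there were 2, against 10.3% of all tested genes, and voom on the recovered reads also gave 0 passing genes and 2 at that unadjusted level. The unadjusted count was 19 without WT replicate 1, against 19.8% of all tested genes, and 16 with library quality weights, against 27.9%. The fitted change was above 0 for 77 of the 82 genes, against 54.7% of all tested genes, with a median of 0.086 on the log2 scale against 0.021 over all. All 32 small-subunit genes were among them, with a median of 0.096, as were 42 of 47 large-subunit genes, with a median of 0.0815, and all 3 stalk genes, with a median of 0.18. The count of 77 was 73 under median-of-ratios scaling, 63 with the mitochondrial genes taken out of the library totals and 56 under quantile normalization. It also rested on single libraries: without IgAN replicate 1 it was 36 with a median of -0.0082, without WT replicate 3 it was 40 with -0.0026, and without WT replicate 2 it was 48 with 0.013. Without WT replicate 1, by contrast, it was 79 with a median of 0.24, and without WT replicate 1 and IgAN replicate 1 together it was 78 with 0.14. FPKM ranges of the 2 groups did not overlap for 7 genes, all higher in IgAN, where 9.18% of all tested genes were higher and 4.8% lower without overlap.

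Rplp2, a stalk protein, had the smallest p. It was at 201, 181 and 222 FPKM in WT and at 283, 219 and 257 in IgAN, so the lowest IgAN library lay below the highest WT library. Its log2 change was 0.32 ± 0.12 (SE), with a limma adjusted p of 0.358. Weighting libraries by quality brought this to 0.40 with an adjusted p of 0.0439, the 1 ribosomal protein gene past the threshold under any of the alternatives. Rpl3l was at 1.21, 1.41 and 0.916 FPKM in WT and 1.57, 1.68 and 1.69 in IgAN, without overlap, with a log2 change of 0.29 ± 0.11 and a limma adjusted p of 0.365. The size of this change depends on the pseudocount at so low a level. It was 0.469 with a pseudocount of 0.1 and 0.489 by voom. Rpl3l rests on at most 106 reads in a library.

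Rplp0, the scaffold of the stalk, was at 419, 495.5 and 454 FPKM in WT and 537, 512 and 503 in IgAN. All IgAN libraries were above all WT libraries, and the log2 change was 0.18 ± 0.10 (limma adjusted p = 0.609). Rpl4, a protein that lines the exit tunnel, was at 343, 385 and 371 FPKM in WT and 433, 413 and 411 in IgAN, with a log2 change of 0.19 ± 0.096. Rps3, which sits at the mRNA entry and also has DNA repair activity, was at 199.0, 199 and 202.0 FPKM in WT and 224, 222 and 219.8 in IgAN. Its 2 groups were each within 4 FPKM and apart from one another, with a log2 change of 0.15 ± 0.089. Rps9, an early-joining small-subunit protein, was at 332, 318 and 321 FPKM in WT and 376, 351.5 and 359.5 in IgAN, with a log2 change of 0.16 ± 0.088. The limma adjusted p of Rpl4, Rps3 and Rps9 was 0.546, 0.629 and 0.596. Rpl8 and Rpl9, both of the large subunit, completed the 7 genes without overlap. Of these 7 genes, 5 were among the 24 tested ribosomal protein genes with a coding length of 600 bases or more, and 0 among the 27 under 400 bases. Of 3489 other tested genes of 600 to 1257 bases, 385 were higher in IgAN without overlap and 181 lower. Of 562 other tested genes under 400 bases, 35 were higher and 27 lower. A relation to length among the 7 genes was not tested.

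GQYS was set against IgAN to ask how knock-in kidneys differed with the preparation. Again 0 of 82 genes passed limma, where 0.198% of all tested genes did. There was 1 at an unadjusted p under 0.05, against 10.4% of all tested genes, and 0 by voom at either level. The change was above 0 for 50 of 82 genes, against 51.6% of all tested genes, with a median of 0.020 against 0.0064 over all. Without IgAN replicate 1 this became 71 with a median of 0.11. Without IgAN replicate 2 it became 14 with -0.076, without GQYS replicate 1 it was 22 with -0.034, and without IgAN replicate 3 it was 32 with -0.012. The sign of the median therefore turned on which library was left out. Scaling mattered as well, since the count above 0 was 69 under quantile normalization, 64 without mitochondrial genes in the totals and 48 under median-of-ratios scaling. Ranges did not overlap for 3 genes, all lower in GQYS, where 9.29% of all tested genes were lower and 9.84% higher without overlap.

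These 3 were Rpl3l, Rpl7l1 and Rpl8. Rpl3l was at 1.18, 1.20 and 1.22 FPKM in GQYS, below every IgAN library, with a log2 change of -0.27 ± 0.11 (limma adjusted p = 0.430). With a pseudocount of 0.1 that change was -0.425, and by voom -0.454. Rpl7l1, whose product acts in ribosome assembly, was at 32.7, 35.4 and 31.2 FPKM in IgAN and 29.0, 29.2 and 27.1 in GQYS, with a log2 change of -0.21 ± 0.097 and a limma adjusted p of 0.502. Rpl8, a large-subunit protein near the peptidyl transferase centre, was at 450.2, 407 and 399.3 FPKM in IgAN and 399.0, 389 and 382 in GQYS. The lowest IgAN and the highest GQYS library were thus nearly level. Its log2 change was -0.10 ± 0.094. Rpl22, Rps13 and Rpl5 were the other genes with the smallest p, with log2 changes of 0.13, -0.10 and 0.089 and limma adjusted p of 0.793, 0.893 and 0.855. Rplp0 had a mean of 517 FPKM in IgAN and 518 in GQYS, a log2 change of -0.00022 ± 0.10.

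The comparison of GQYS with WT set treated knock-in kidneys against wild-type ones. Here 0 of 82 genes passed limma, as did 0.0% of all tested genes, and 0 had an unadjusted p under 0.05, against 4.43% of all. Voom gave 0 at both levels. The change was above 0 for 76 of 82 genes, against 59.3% of all tested genes, with a median of 0.0999 against 0.029. Under the 3 other scalings it was 70 to 74 of 82. The WT libraries are the same as in the comparison with IgAN, so the similar counts are not independent of each other. Without WT replicate 3 the count was 44 with a median of 0.012 and without WT replicate 2 it was 49 with 0.035. Without WT replicate 1 it was 80 with 0.24, and 25 genes then had an unadjusted p under 0.05, against 9.31% of all tested genes. Without WT replicate 1 and IgAN replicate 1 together 50 did, against 13.2% of all. With library quality weights 60 did, against 24.9% of all, with a median change of 0.23 and a smallest adjusted p of 0.0949 by limma. Under these 3 settings 0 passed the threshold. Ranges did not overlap for 6 genes, all higher in GQYS, where 7.14% of all tested genes were higher and 2.61% lower without overlap. Among them Rplp2 was at 234, 235 and 237 FPKM in GQYS, close together and just above the highest WT library at 222, with a log2 change of 0.23 ± 0.12. Rps3 was at 233.8, 233.8 and 211 FPKM in GQYS, with a log2 change of 0.17 ± 0.089, and Rpl4 was at 439, 408.5 and 397, with a log2 change of 0.18 ± 0.096. Rpl5, which with Rpl11 carries 5S rRNA into the ribosome, was at 215, 215 and 198 FPKM in GQYS against 181, 196 and 191 in WT, with a log2 change of 0.15 ± 0.090. Rps4x, at 0.22 ± 0.14, overlapped through the WT libraries at 246 and 230.5 FPKM. The smallest limma adjusted p of a ribosomal protein gene in this comparison was 0.9995.

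**Figure D4:**
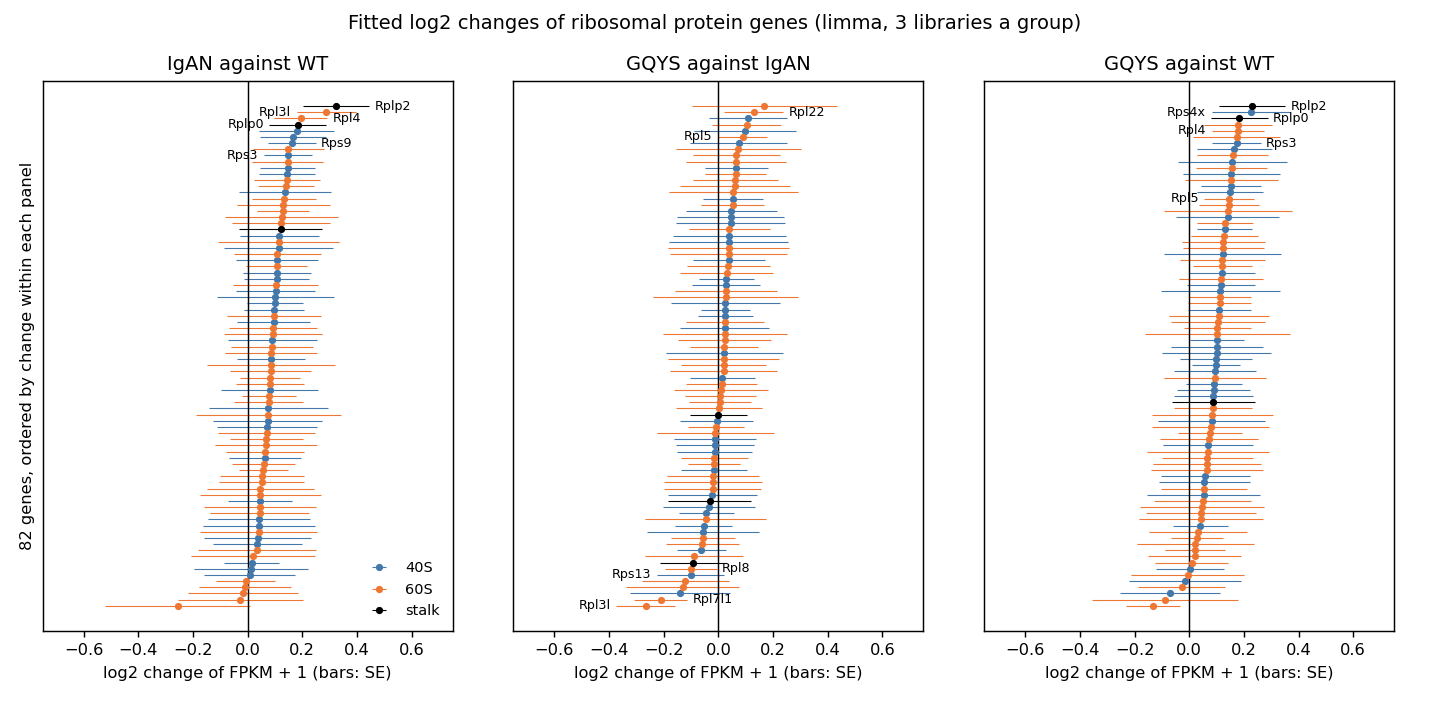
Fitted log2 changes with standard errors of 82 ribosomal protein genes in the 3 comparisons, ordered within each panel, with the 6 smallest p named. In the outer panels 77 and 76 of 82 points lie above 0, in the middle panel 50 do, and 0 genes passed the threshold in any panel.

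Several ribosomal proteins have paralogs, some of them used in particular tissues, and 7 rows of the table were taken as paralogs by their names. Rpl3l reached 1.34 FPKM on average and Rpl3 283 FPKM. Rpl39l, the paralog of Rpl39 known from testis, had 0 reads in 8 libraries and 1 read in GQYS replicate 2, against 153 coding bases and 2877 to 5490 reads per library for Rpl39. A count of 0 allows up to 3 reads, a limit that covers counting error only. Rpl22l1 was expressed at a level like that of Rpl22, at 83.1 and 71.2 FPKM, but on the coding scale at 110.5 against 410.0. Rps27l, a p53 target, was at 44.8 FPKM and Rps27 at 438 FPKM, while on the coding scale they were at 488.5 and 601. Rpl7l1 was at 30.9 FPKM and Rpl7 at 459.5. Rpl6l and Rpl32l could not be matched to a GENCODE M21 gene, and their averages were 27.1 and 0.352 FPKM. Rpl10l and Rps4l were not analysed here. In none of the 3 comparisons did a paralog pass the threshold, and Rpl22l1 had the largest SE of the set, 0.27 on the log2 scale.

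Some ribosomal proteins are also known for roles outside the ribosome. Rpl5 and Rpl11 bind Mdm2 when ribosome assembly fails and so release p53. Rpl5 was at 189 ± 7.76 FPKM in WT kidneys, 197 ± 6.08 in IgAN and 209.5 ± 9.82 in GQYS, and Rpl11 at 175 ± 51.3, 177 ± 22.2 and 184.5 ± 12.9 (SD, n = 3). The wide WT spread of Rpl11 came from 234.5 FPKM in WT replicate 1 against 144 and 147 in the other WT libraries. Rps6, the target of S6 kinase, was at 206 ± 17.4, 228 ± 11.7 and 219.5 ± 15.02 FPKM. Rps27a, made as a fusion with ubiquitin, was at 217 ± 10.5, 244 ± 29.5 and 241 ± 24.8 FPKM. Of these 4 genes only Rpl5 had ranges that did not overlap in any comparison, between GQYS and WT. The smallest limma adjusted p of the 4 was 0.703 between IgAN and WT, 0.855 between GQYS and IgAN and 0.9995 between GQYS and WT.

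Further proteins of the cytosolic ribosome carry other names. Fau, a fusion with a ubiquitin-like domain, Rack1, a scaffold on the small subunit, and Rpl36al, a copy of Rpl36a, were tested as well. These are 3 of the 4 genes of this list, and the values of the other are not reported. Their log2 changes in IgAN against WT were 0.067, 0.094 and 0.096, and 0 of the 4 passed. Rack1, at group means of 313, 334 and 336 FPKM, varied little, with an SD of 0.076 in log2 level over 9 libraries.

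Genes that work with the ribosome were examined from lists of known members. Of 16 elongation factors and other mRNAs with a TOP motif, 0 passed in any comparison, and their median log2 changes were 0.0865 between IgAN and WT, 0.012 between GQYS and IgAN and 0.10 between GQYS and WT. These medians are close to those of the ribosomal protein genes, 0.086, 0.020 and 0.0999. By library the lists differed, since WT replicate 1 was at -0.051 for the TOP list and at 0.24 for the ribosomal protein genes. Eef1a1, the main carrier of aminoacyl-tRNA, was at 1750 FPKM in WT replicate 1 and 2170 to 2690 in the others. Eef1g, an elongation factor subunit, was at 132 ± 5.43 FPKM in WT kidneys, 158 ± 8.11 in IgAN and 152 ± 10.8 in GQYS (SD, n = 3; log2 change 0.25 in IgAN against WT, limma adjusted p = 0.369). Pabpc1, the poly(A)-binding protein, was at 78.9 ± 4.70, 93.4 ± 7.68 and 90.3 ± 1.45 FPKM (log2 change 0.24, limma adjusted p = 0.409).

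A list of 39 ribosome biogenesis genes held assembly factors, which are needed to build new ribosomes, and also Myc. Of these 39 genes, 0 passed in any comparison. In GQYS against IgAN 32 of them had a change below 0, with a median of -0.18 on the log2 scale, where 51.6% of all tested genes had a change above 0. In IgAN against WT 28 had a change above 0, with a median of 0.088. IgAN replicate 1 stood out, with a median deviation of 0.22 for this list against 0.040 and -0.031 in IgAN replicates 2 and 3. Myc, the transcription factor that drives ribosome synthesis, was at 3.96, 1.62 and 1.35 FPKM in WT kidneys, 7.48, 3.68 and 4.06 in IgAN and 2.73, 2.38 and 2.05 in GQYS. WT replicate 1 lay inside the IgAN range. The log2 change was 0.91 ± 0.29 in IgAN against WT (limma adjusted p = 0.281) and -0.795 ± 0.29 in GQYS against IgAN (0.375). Nop16, a nucleolar assembly factor, was at 17.9 ± 1.68 FPKM in IgAN and 14.2 ± 0.171 in GQYS, with a log2 change of -0.31 ± 0.0996 (limma adjusted p = 0.299). The ribosomal protein genes had no such shift in that comparison, with 50 of 82 above 0, and the difference between the lists was not tested.

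Regulators of TOP mRNAs and of p53 gave 0 passing genes too. Among 14 genes of mTOR signalling and TOP control, 9 had a change above 0 and 5 below 0 in IgAN against WT, from -0.23 to 0.93 with a median of 0.0505. Those with the smallest p are named. Eif4ebp1, the inhibitor of cap-dependent initiation, was at 8.94 ± 0.506 FPKM in WT kidneys, 14.1 ± 4.43 in IgAN and 10.2 ± 0.454 in GQYS (log2 change 0.57 in IgAN against WT, limma adjusted p = 0.250). Sesn2, a stress-induced inhibitor of mTORC1, was at 11.4 ± 4.06, 22.0 ± 4.81 and 22.1 ± 6.09 FPKM (log2 change 0.93, limma adjusted p = 0.259). Of 8 tested p53 pathway genes all had a change above 0 in IgAN against WT, with a median of 0.14. Cdkn1a, which encodes p21, was at 3.53, 4.32 and 5.39 FPKM in WT kidneys, 28, 11.2 and 9.53 in IgAN and 3.76, 4.79 and 2.95 in GQYS. Its IgAN values lay above all others, and its log2 change was 1.53 ± 0.33 with a limma adjusted p of 0.105, and -1.70 ± 0.33 with 0.103 in GQYS against IgAN.

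The mitochondrial ribosome, a separate machine whose proteins are encoded in the nucleus, moved with the cytosolic one between libraries. The median deviation of its 78 genes was 0.17 in WT replicate 1 and 0.125 in IgAN replicate 1, and -0.145 in WT replicate 3. None of the 78 passed. In IgAN against WT 59 of them had a change above 0, with a median of 0.082, beside 77 of 82 and 0.086 for the ribosomal protein genes. In GQYS against IgAN 60 of them had a change below 0, with a median of -0.065. The 35 short nuclear subunits of oxidative phosphorylation, chosen because their coding sequences are as short as those of many ribosomal protein genes, had median deviations of 0.36 in WT replicate 1, -0.205 and -0.19 in WT replicates 2 and 3 and 0.19 in IgAN replicate 1. Of these 35, 29 had a change above 0 in IgAN against WT, with a median of 0.0795, and 30 had a change below 0 in GQYS against IgAN, with a median of -0.073, and 0 passed. The 13 mitochondrially encoded genes had a median change of -0.32 in IgAN against WT and 0.255 in GQYS against IgAN, again with 0 past the threshold. Their median deviations were 0.79, -0.18 and -0.38 in WT replicates 1 to 3 and 0.016, -0.67 and -0.090 in IgAN. In GQYS they were -0.0125, -0.11 and 0.345. WT replicate 1 was thus the highest library and IgAN replicate 2 the lowest, and both changes leaned on such single libraries.

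**Figure D5:**
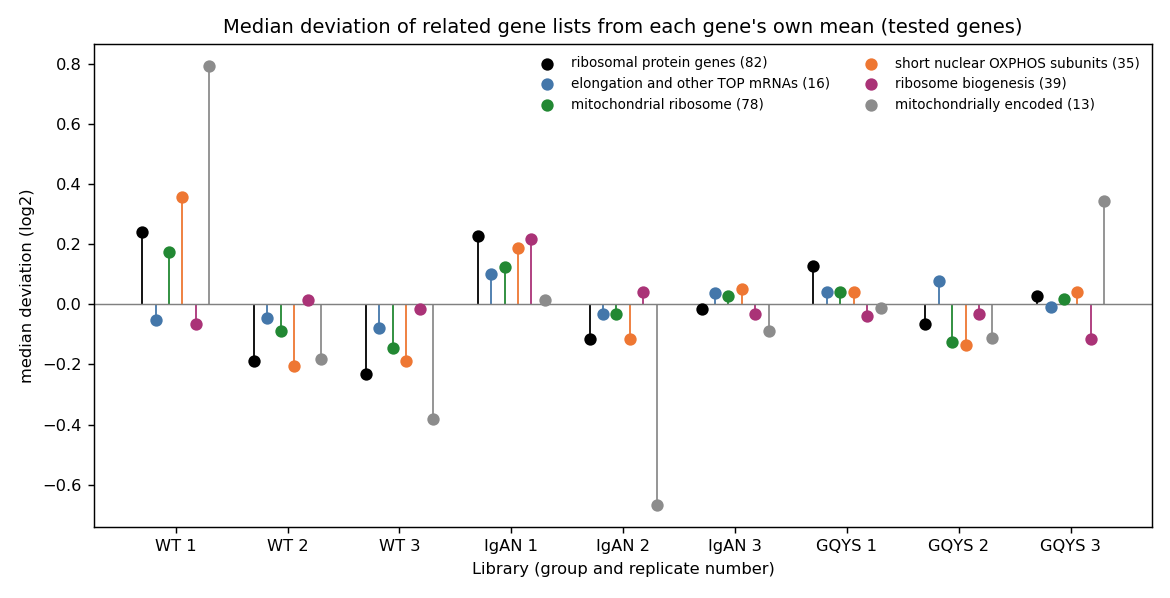
Median deviation from each gene's own mean (log2) in 9 libraries for the ribosomal protein genes and 5 other lists, with the number of tested genes in parentheses. In WT replicate 1 the ribosomal protein genes (0.24) and short oxidative phosphorylation subunits (0.36) are high while the TOP list (-0.051) and ribosome biogenesis genes (-0.065) are not.

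Markers of other cell types were read beside the ribosomal protein genes. Neutrophil markers (5 genes) summed to 26.2 to 33.0 FPKM in the IgAN libraries, 1.02 to 3.29 in WT and 2.18 to 3.25 in GQYS, and all 3 tested ones passed limma in IgAN against WT and in GQYS against IgAN. Ly6g, the defining surface marker, was at 0 in every WT and GQYS library and at no more than 0.0319 FPKM in IgAN. B and plasma cell markers (5 genes in the table) summed to 8.24 to 26.9 FPKM in WT, 1.66 to 5.61 in IgAN and 7.93 to 11.6 in GQYS. T cell markers (5 genes) summed to 1.15 to 2.99 FPKM over all libraries, and proliferation markers (5 genes) to 0.871 to 2.44. Macrophage markers (6 genes) summed to 51.6 to 127 FPKM in WT, 95.1 to 147 in IgAN and 63.7 to 81.5 in GQYS. Fibroblast and mesangial markers (5 genes) had means of 37.5 ± 5.69, 48.9 ± 10.7 and 38.6 ± 2.76 FPKM in WT, IgAN and GQYS (SD, n = 3). In that order, endothelial ones (5) had 78.8 ± 7.27, 72.6 ± 6.75 and 92.6 ± 4.69. Red cell genes (5) had 565 ± 258, 521 ± 167 and 730 ± 294. Fat genes (6) had 110 ± 28.4, 71.9 ± 8.74 and 85.9 ± 16.4. Urothelial ones (5) had 6.08 ± 7.38, 2.52 ± 2.53 and 2.48 ± 1.04. The urothelial WT mean rested on 14.6 FPKM in WT replicate 3, against 1.26 and 2.40 in WT replicates 1 and 2. Muscle genes (5) were at 0.11 to 0.142, with Myh4 at 0 in every library, beside the low level of Rpl3l. Ribosomal protein mRNAs together summed to 21400 to 29200 FPKM in each library, and the part of these cells in them was not tested.

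Ribosomal protein genes are often used as references in quantitative PCR. Rplp0 had an SD of 0.12 in log2 level over the 9 libraries, Rpl13a 0.199 and Rps18 0.24. Beside them Hprt had 0.086, Ppia 0.102, Gapdh 0.15 and Actb 0.39. Actb, at 397 ± 93.5 FPKM in IgAN and 261 ± 47.5 in GQYS, had a log2 change of -0.59 ± 0.23 (limma adjusted p = 0.403). Rps18 was at 644 FPKM in WT replicate 1 and 394 in WT replicate 3, within a single group.

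Many ribosomal protein genes have processed pseudogenes with nearly the same sequence, and reads could be shared with them. Each gene's whole mRNA was searched against 13607 GENCODE M21 pseudogene transcripts. Hits with at least 95% identity were counted where the aligned stretch was at least 80% as long as the coding sequence. The aligned stretch could lie outside the coding sequence itself. Rpl21 had 56, Rpl7a 32, and Rps2 and Rpl29 26 each, and 16 tested genes had 10 or more. Rplp2, Rps3, Rpl8, Rps27l and Rpl3l were among the 6 tested genes with 0. Levels of genes with many copies are uncertain where the counting dropped or split such reads. Rpl21 at 48.8 FPKM was among the lowest of the set, with a counted gene length of 2069 bases and a coding sequence of 480. Rps2, at 618 FPKM, was among the highest, and Rpl7a and Rpl29 were at 306 and 153. The median level was 223 FPKM for the 6 genes with no copies, 278 for the 59 with 1 to 9 and 249 for the 16 with 10 or more. Of rows outside the naming rule, Rpl34-ps1, a pseudogene, was at 16.5 FPKM on average and Rpl37rt, a retrotransposed copy, at 22.0 to 35.9, and the other 9 pseudogene rows were under 1 FPKM on average.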

How the data were processed

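Kidney RNA of 9 libraries was sequenced, and the authors deposited 1 table of FPKM per gene symbol. Per the submitters' processing notes, fastp, HISAT2, HTSeq, DESeq2, R 3.2.0 and the GRCm39 build were used. The sources used here do not give the annotation or the strand setting. Each column was matched to a sample by the library name in the labels, and 0 columns belonged to other samples.

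The values were analysed as log2(FPKM + 1) with limma 3.58.1 in R 4.3.3, in a single model of 9 libraries with a trended variance. Genes with an FPKM of 1 or more in 3 or more libraries were kept, and p-values were adjusted by the Benjamini-Hochberg method over all 11617 of them, with a threshold of 0.05. Whole reads were recovered from the FPKM steps for 26139 of 26139 genes, within 0.03 reads, and totals of 30564947 to 38161564 reads followed. Voom was run on them as an alternative. The limma script was first tested on simulated data. Coding lengths and pseudogenes came from GENCODE M21 (blastn 2.17.0), promoter windows from RefSeq. RefSeq and GENCODE use the older GRCm38 build, so those coordinates belong to that build and not to the authors'.

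Members and gene lists were chosen with earlier results of these data known. Genes were named by rank of level, of departure from the other members and of p in each comparison, with paralog pairs and genes known for roles outside the ribosome. The coding-length bins, the promoter motifs and the scaling without mitochondrial genes were chosen after values had been seen. Some results are not reported here.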

Additional observations from a re-analysis of the deposited data

How the results depend on the processing

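Counts of ribosomal protein genes past the threshold were 0 in all 3 comparisons under every alternative but 1. With library quality weights, 1 gene passed between IgAN and WT, Rplp2, and 655, 404 and 53 of all tested genes passed in the 3 comparisons, against 41, 23 and 0. Leaving out each of the 9 libraries in turn gave 0 members each time, with medians of -0.0082 to 0.236 for IgAN against WT, -0.0764 to 0.11 for GQYS against IgAN and 0.0121 to 0.237 for GQYS against WT. Each median moved by less than 0.191, the SD of the members' median deviation between libraries of a group. That SD exceeds the medians themselves (0.0863, 0.0203 and 0.0999), so staying within it does not show that they were stable. The medians of the first 2 comparisons changed sign.

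The replicate block gave 0, 0 and 0 members and left the medians of 0.0863, 0.0203 and 0.0999 as they were, while over all genes it gave 68, 26 and 0 calls. Deviations of same-numbered libraries correlated at 0.223 to 0.581 for replicate 1, 0.35 to 0.467 for replicate 2 and -0.364 to 0.078 for replicate 3 over all tested genes, and at 0.552 to 0.838, 0.72 to 0.774 and -0.487 to 0.316 over the ribosomal protein genes. Since replicate 3 did not follow, the numbers were not taken to pair the samples. Calls over all genes between IgAN and WT were 21 with no filter, 24 with the stricter filter, 11 with only the 2 groups, 27 without mitochondrial genes, and 14 to 65 with a library left out. Between GQYS and IgAN they were 13, 14, 43 and 17 under those settings, 15 with a pseudocount of 0.1, and 6 to 54 with a library left out.

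Rplp0 between GQYS and IgAN, at -0.000218, turned positive under quantile normalization (0.0457), without mitochondrial genes (0.0307), with voom (0.000568) and without WT and IgAN replicate 1 (0.0267), and ran from -0.036 to 0.0462 with a library left out. The cause was not tested. The planned scaling by symbols starting with mt- could not be run as worded, since the table uses other symbols. Depth limits Rpl3l, on 52 to 106 reads.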
